A study of Mus musculus with 12 samples.

Results

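The Krüppel-like factors are zinc-finger transcription factors, and 10 of the mouse genes that encode them, *Klf2*, *Klf3*, *Klf4*, *Klf5*, *Klf6*, *Klf7*, *Klf9*, *Klf10*, *Klf13* and *Klf15*, were followed in C57MG cells treated with Rspo2, Wnt3a or both. Every spot other than a control whose gene name in the scanner files was one of these symbols was taken, called or not, which gave 10 genes of 27962 gene names and 18 probes of 41174 on the array. *Klf4* and *Klf10* had 1 probe each and the other 8 genes had 2, here named the brighter and the dimmer probe of that gene by their mean signal. The line, C57MG, was derived from mouse mammary gland and is labelled epithelial. Monolayers in medium without serum were exposed for 24 h to recombinant human Rspo2 at 100 ng/ml, to recombinant mouse Wnt3a at 100 ng/ml, to both at these doses, or to bovine serum albumin (BSA), the carrier protein, as the control. Each of the 4 groups had 3 monolayers, labelled as biological replicates, and the RNA of each was hybridized in 1 colour to an array of its own.

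These factors share a C-terminal domain of zinc fingers that binds CACCC and GC-rich boxes in promoters, and they differ in the N-terminal part, which recruits co-activators or co-repressors. Members that mostly activate transcription include Klf2, Klf4, Klf5, Klf6 and Klf7. Klf3 represses through the CtBP co-repressors, Klf9, Klf10 and Klf13 can repress through Sin3A, and Klf15 is known for its part in metabolism and in the response to glucocorticoids. In the mammary gland Klf5 is known from the basal and progenitor cells of the epithelium and from breast tumour lines. Rspo2 is a secreted protein that strengthens the signal of Wnt proteins, and Wnt3a is a ligand that stabilizes β-catenin, which acts with TCF/LEF factors at target genes.

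Signals are given as log2 of the background-subtracted intensity over the 75th percentile of the same array, which was between 773.9 and 1146.3 intensity units on the 12 arrays, and a difference of 1 on this scale is 2-fold. The scanner software judged between 51.28% and 64.17% of the probes of an array to be well above background. A probe was tested where this held on all 3 arrays of at least 1 group, which left 22751 probes, 17 of them from these genes. On all 12 arrays 15 of the 18 probes reached this level, the dimmer *Klf5* probe did on 10, the brighter *Klf15* probe on 3 and the dimmer *Klf15* probe on 2, so that the last was not tested. None of the 18 probes was saturated on any array. A probe passed the test at an adjusted p under 0.05, and was called if it also changed by 2-fold or more. Each of 3 slides carried 4 arrays: the BSA arrays shared the first with Rspo2 replicate 1, Wnt3a replicate 3 shared the third with the 3 combination arrays, and the other 4 arrays were on the second. The labelled cell type was checked against its markers. Of 8 mammary epithelial markers 3 (*Krt8*, *Krt14* and *Trp63*) were well above background on all 12 arrays, while *Cdh1*, the epithelial cadherin, was at this level on 0 arrays, *Epcam* on 2 and *Krt18* on 3. Of 7 fibroblast or mesenchymal markers 6, among them *Vim* and *Col1a1*, were well above background on all 12 arrays, and *Thy1* on 0. With both proteins 3 of these 6 passed the test downward and 0 upward, beside 39.2% of all tested probes in either direction. *Col3a1*, *Pdgfrb* and *Fbn1* changed by -0.85, -0.60 and -0.54 on the log2 scale (adjusted p = 0.00156, 0.0015 and 0.00754). The summed signal of the epithelial list was between 11.6 and 11.9 times the 75th percentile with BSA and between 23.5 and 26.7 times with both proteins, and it followed *Krt14*, whose log2 signal was 3.35 with BSA and 4.59 with both. Of the other tested members with both, *Krt8* fell by 1.15 and *Trp63* by 0.40 on the log2 scale (adjusted p = 0.000366 and 0.0143), *Krt5* changed by 0.22 (adjusted p = 0.387), and the median of the 4 was -0.09. The summed signal of 6 leukocyte markers was between 5.83 and 6.79 with BSA and between 3.42 and 3.97 with both, where *Cd14* fell by 0.79 on the log2 scale (adjusted p = 1e-04) and *Ptprc* was well above background on 1 array of 12. *Cd68* and *Csf1r*, well above background on 12 and 11 arrays, changed by -0.23 and -0.75 with both (adjusted p = 0.172 and 0.0217). That of 3 adipocyte markers went from between 0.486 and 0.565 to between 0.283 and 0.367 and that of 4 endothelial markers from between 2.43 and 2.6 to between 1.63 and 1.75, with *Plin1* and *Kdr* well above background on 0 arrays. In each of these lists 1 gene was well above background on all 12 arrays and made up most of the sum. These were *Fabp4* and *Cdh5*, which fell by 0.81 and 0.55 on the log2 scale with both (adjusted p = 0.000822 and 0.000259). The part of these shifts in the results below was not tested, and in bulk RNA fewer cells of a type and less RNA per cell cannot be told apart.

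The main response among these genes was in *Klf5*, which was up-regulated by Wnt3a and more so by Rspo2 plus Wnt3a. Of *Klf13* and *Klf15* 1 probe each was called lower. The *Klf15* probe was tested through the BSA arrays alone and was well above background on no treated array. Its calls are included in the counts below, but add nothing to that difference in detection. With Rspo2 plus Wnt3a 4 of the 17 tested probes were called against BSA, 2 higher (both of *Klf5*) and 2 lower (*Klf13* and *Klf15*), beside 5.08% of all tested probes (1.28% higher, 3.79% lower). With Wnt3a alone 2 probes were called, *Klf5* higher and *Klf15* lower, beside 2.52% of all tested probes (0.404% higher, 2.11% lower). With Rspo2 alone 1 probe was called, of *Klf15* and lower, beside 0.721% of all tested probes (0.62% lower). Its fitted change is past 2-fold, but the treated arrays were not well above background. The fold given below, with the lowest treated values raised, is 1.78-fold and does not reach that limit. Without the 2-fold limit 4, 4 and 8 probes passed the test with Rspo2, Wnt3a and both, where 16.8%, 31.5% and 39.2% of all tested probes did. The median change of the 17 probes was 0.25 with Rspo2, 0.10 with Wnt3a and 0.12 with both on the log2 scale, beside 0.01, 0.00 and 0.04 over all tested probes. The comparisons with BSA share the same 3 control arrays. The groups did not overlap in 9, 6 and 10 of the probes, where they did not in 43.5%, 45.5% and 54% of all tested probes.

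**Figure D1:**
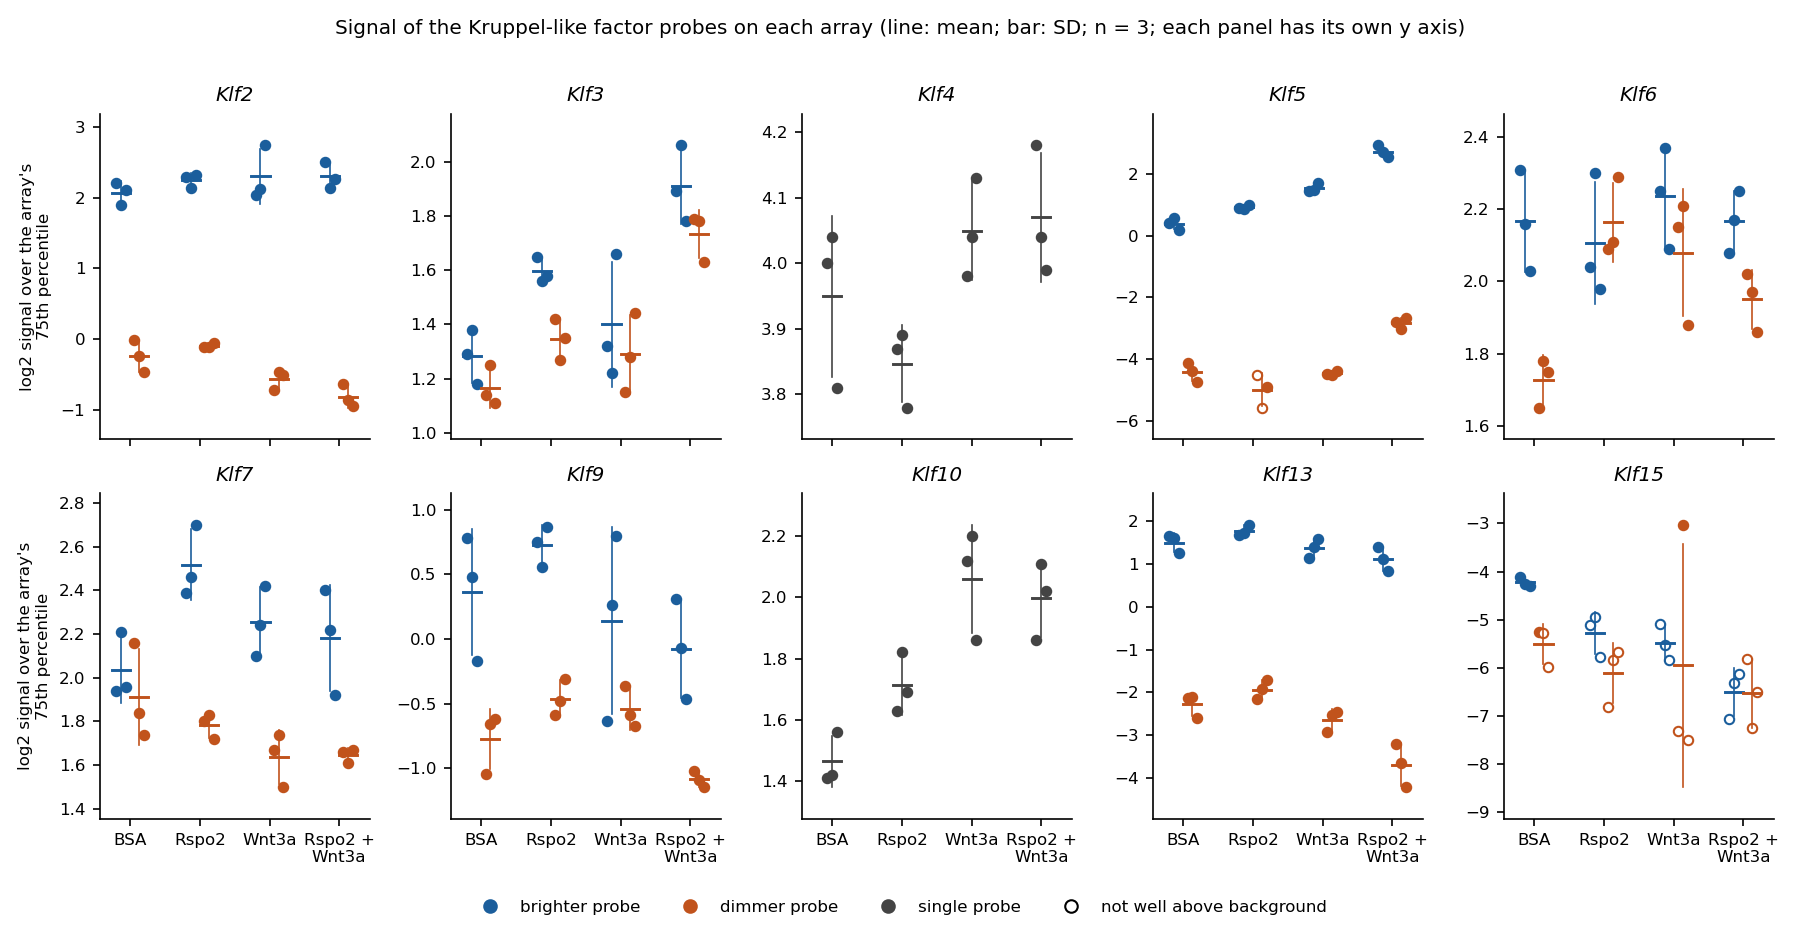
Log2 signal over the array's 75th percentile (y axis, its own range in each panel) of the 18 probes in the 4 groups (x axis). Points are arrays, filled where the probe was well above background, lines are means and bars are SD (n = 3). Both *Klf5* probes are highest with Rspo2 plus Wnt3a, from 2.54 to 2.92 and from -3.01 to -2.68, while the brighter *Klf15* probe is filled on the 3 BSA arrays and open on the other 9.

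*Klf5* encodes a factor that promotes the growth of many epithelial cells. Its brighter probe (A_51_P507290) gave log2 signals of 0.40, 0.56 and 0.19 with BSA, 0.90, 0.85 and 1.00 with Rspo2, 1.43, 1.49 and 1.71 with Wnt3a, and 2.92, 2.7 and 2.54 with Rspo2 plus Wnt3a. The 4 groups stood in this order without overlap. Against BSA the probe rose by 0.54 ± 0.12 (SE, n = 3 per group; 1.45-fold, adjusted p = 0.0229) with Rspo2. It rose by 1.16 ± 0.12 (2.23-fold, adjusted p = 0.000258) with Wnt3a, and by 2.34 ± 0.12 (5.05-fold, adjusted p = 5.67e-07) with both. Wnt3a was above Rspo2 by 0.62 ± 0.12 (adjusted p = 0.0378), the 1 of the 17 probes that passed the test in this comparison, where 1.47% of all tested probes passed and 0 of the 17 were called beside 0.202% of all. The Wnt3a and Rspo2 groups did not overlap in 6 of the 17 probes, where they did not in 17.7% of all tested probes. The combination was above Wnt3a alone by 1.18 ± 0.12 (2.26-fold, adjusted p = 0.000367).

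The dimmer *Klf5* probe (A_52_P54463), designed to another transcript record and close to background, showed the rise with both proteins but not the steps before it. Its log2 signals were -4.13, -4.37 and -4.74 with BSA, -4.50, -5.57 and -4.89 with Rspo2, -4.48, -4.53 and -4.38 with Wnt3a, and -2.80, -3.01 and -2.68 with both. The combination arrays stood above the other 9, and the other 3 groups overlapped, apart from Rspo2 replicates 2 and 3, which were the lowest arrays. With Rspo2 this probe was well above background on 1 of 3 arrays. It rose by 1.58 ± 0.24 (2.99-fold, adjusted p = 0.000565) with both proteins against BSA and by 1.63 ± 0.24 (3.1-fold, adjusted p = 0.00281) against Wnt3a. Its difference from BSA was -0.58 ± 0.24 with Rspo2 (adjusted p = 0.111) and -0.05 ± 0.24 with Wnt3a (adjusted p = 0.891), where the brighter probe had risen. With another background correction (normexp, which fits the background and adds an offset of 50) the change with both was 0.55 at this probe (adjusted p = 0.659) and 2.31 at the brighter one (adjusted p = 0.000132).

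Slide was partly shared between groups, so *Klf5* was also compared within slides. The BSA arrays shared no slide with the Wnt3a or the combination arrays. A fit that includes slide joins BSA to them only through the Rspo2 array on the first slide. The combination is joined further through the Wnt3a array on the third. A change that does not pass in that fit is not shown to be absent. On the first slide the Rspo2 array was above the mean of the 3 BSA arrays by 0.52 at the brighter probe and differed by -0.09 at the dimmer one. On the second slide the 2 Wnt3a arrays were above the 2 Rspo2 arrays by 0.53 and 0.73. On the third slide the 3 combination arrays were above the Wnt3a array by 1.01 and 1.55. These are values without a test. In a fit that included slide the rise of the brighter probe with both was 2.07 (adjusted p = 0.00945) against BSA. It was 1.01 (adjusted p = 0.0307) against Wnt3a, and the change with Wnt3a was 1.05 (adjusted p = 0.0911). The dimmer probe gave 2.18, 1.55 and 0.64 in these comparisons (adjusted p = 0.0498, 0.0381 and 0.489). The smaller steps of the brighter probe did not pass there, at 0.52 for Rspo2 against BSA and 0.53 for Wnt3a against Rspo2 (adjusted p = 0.240 and 0.177). With normexp they did not pass either, at 0.39 and 0.72 (adjusted p = 0.661 and 0.415). Rspo2 against BSA passed in 21 of 29 alternatives, and not without BSA replicate 1 or 3 or Rspo2 replicate 3 (adjusted p from 0.0681 to 0.0860). Wnt3a against Rspo2 passed in 14 of 29, and not without any of the Rspo2 and Wnt3a arrays, BSA replicate 1 or combination replicate 2 (adjusted p from 0.0545 to 0.129). The 5 other genes with a signal most like that of the brighter *Klf5* probe over the 12 arrays, among 9713 genes, were *Adra1b*, *Inhba*, *Gadd45g*, *Sdc2* and *Edn1*, with Pearson's r of 0.992, 0.992, 0.990, 0.989 and 0.987. The points share the treatments, and with both proteins these genes changed by 1.47, 1.89, 2.2, 1.26 and 2.08 against BSA on the log2 scale.

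The other members known mainly as activators moved less. *Klf4*, which helps to hold cells in an undifferentiated or a quiescent state, was measured by 1 probe, with log2 signals of 4, 4.04 and 3.81 with BSA and 4.18, 4.04 and 3.99 with both proteins. These groups overlapped, and the change was 0.12 ± 0.09 (95% interval -0.07 to 0.31, adjusted p = 0.298), after -0.10 ± 0.09 (-0.30 to 0.09) with Rspo2 and 0.10 ± 0.09 (-0.09 to 0.29) with Wnt3a. For *Klf2*, a regulator of quiescence in endothelium and lymphocytes, the probes parted. The dimmer probe read -0.01, -0.24 and -0.46 with BSA, -0.11, -0.11 and -0.06 with Rspo2, -0.72, -0.46 and -0.51 with Wnt3a, and -0.64, -0.86 and -0.94 with both. All 3 combination arrays lay below all 3 BSA arrays, and the probe fell by 0.58 on the log2 scale (SE 0.12, adjusted p = 0.00392), which is under 2-fold. The brighter *Klf2* probe differed by 0.23 ± 0.17 (95% interval -0.15 to 0.62, adjusted p = 0.321) with both, with groups that overlapped.

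*Klf6*, a factor induced by injury and by growth signals, also gave a result at its dimmer probe alone. That probe read 1.65, 1.78 and 1.75 with BSA, 2.09, 2.11 and 2.29 with Rspo2, 2.15, 2.21 and 1.88 with Wnt3a, and 2.02, 1.97 and 1.86 with both, so that the BSA arrays were the lowest 3 of the 12. It rose by 0.44 ± 0.10 (adjusted p = 0.0224) with Rspo2 and by 0.36 ± 0.10 (adjusted p = 0.0210) with Wnt3a, and its change with both was 0.22 ± 0.10 (adjusted p = 0.101). The brighter *Klf6* probe changed by -0.06, 0.07 and 0.00 in the same comparisons, with a 95% interval of -0.25 to 0.25 for the last. *Klf7*, known from neurons and from fat cell precursors, rose at its brighter probe with Rspo2, where the arrays read 2.39, 2.46 and 2.7 against 1.94, 2.21 and 1.96 with BSA. The groups did not overlap, and the rise was 0.48 ± 0.14 (adjusted p = 0.0415). That probe changed by 0.22 with Wnt3a and 0.14 with both, and the dimmer *Klf7* probe by -0.13, -0.27 and -0.27 with Rspo2, Wnt3a and both, all short of the test. In a fit that included slide, and with normexp, the changes of the dimmer *Klf2*, dimmer *Klf6* and brighter *Klf7* probes that had passed kept their direction and no longer passed. *Klf6* passed in 21 of 29 alternatives with Rspo2, not without BSA replicate 1 or 3 or Rspo2 replicate 3 (adjusted p from 0.0606 to 0.0857), and in 17 of 29 with Wnt3a, not without BSA replicate 1 or Wnt3a replicate 1 or 2 (0.0609 to 0.0803). *Klf7* passed with Rspo2 in 12 of 29, and not without any BSA array, Rspo2 replicate 2 or 3, or replicate 2 of Wnt3a or of the combination (adjusted p from 0.0562 to 0.148).

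*Klf3* encodes the member that recruits CtBP, and both of its probes rose with Rspo2 plus Wnt3a. The brighter probe read 1.29, 1.38 and 1.18 with BSA, 1.65, 1.56 and 1.58 with Rspo2, 1.32, 1.22 and 1.66 with Wnt3a, and 1.89, 2.06 and 1.78 with both. The dimmer probe read 1.14, 1.25 and 1.11 with BSA, 1.42, 1.27 and 1.35 with Rspo2, 1.15, 1.28 and 1.44 with Wnt3a, and 1.79, 1.78 and 1.63 with both. At each probe the 3 combination arrays were the highest of the 12. The rise over BSA was 0.62 ± 0.12 (1.54-fold, adjusted p = 0.00220) and 0.57 ± 0.09 (1.48-fold, adjusted p = 0.000925), and over Wnt3a alone 0.50 ± 0.12 (adjusted p = 0.0372) and 0.45 ± 0.09 (adjusted p = 0.0212). The rise over Wnt3a passed in 10 of 29 alternatives at the brighter probe and in 18 of 29 at the dimmer one. It was lost at the brighter probe without any 1 array other than Wnt3a replicate 3 (adjusted p from 0.0526 to 0.167), and at the dimmer probe without Wnt3a replicate 1 or 2 or combination replicate 1 or 2 (0.0693 to 0.0981). With either protein alone the changes were between 0.12 and 0.31 and did not pass the test. Neither rise over BSA passed when slide was included (0.31 and 0.45, adjusted p = 0.547 and 0.296) or with normexp (0.64 and 0.62, adjusted p = 0.0656 and 0.0600). The rise over Wnt3a was 0.24 and 0.29 with slide included (adjusted p = 0.573 and 0.391) and 0.47 and 0.39 with normexp (adjusted p = 0.866 and 1), and did not pass either.

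*Klf10* is an early gene of the response to TGFβ. Its single probe read 1.41, 1.42 and 1.56 with BSA, 1.63, 1.82 and 1.69 with Rspo2, 2.12, 2.20 and 1.86 with Wnt3a, and 1.86, 2.11 and 2.02 with both. All 9 treated arrays were above the BSA arrays, and the Wnt3a and combination arrays overlapped. It rose by 0.59 ± 0.10 (1.51-fold, adjusted p = 0.00267) with Wnt3a and by 0.53 ± 0.10 (1.44-fold, adjusted p = 0.00271) with both, and its change with Rspo2 was 0.25 ± 0.10 (adjusted p = 0.118). The combination and Wnt3a alone differed by -0.06 ± 0.10 (adjusted p = 0.797). Once slide was included these changes were 0.57 and 0.71 and did not pass (adjusted p = 0.176 and 0.136). With normexp they were 0.73 and 0.62 (adjusted p = 0.0728 and 0.0469).

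*Klf13*, a regulator of lymphocyte and heart genes, was the member of the Sin3A group that was called, at 1 probe of 2. The dimmer probe (A_52_P281659) read -2.13, -2.12 and -2.6 with BSA, -2.17, -1.93 and -1.72 with Rspo2, -2.94, -2.53 and -2.46 with Wnt3a, and -3.21, -3.65 and -4.22 with both. The combination arrays lay below all others, while the BSA arrays overlapped those with Rspo2 and those with Wnt3a. It fell by 1.41 on the log2 scale (SE 0.24, 2.66-fold lower, adjusted p = 0.00130) with both against BSA. Against Wnt3a alone it fell by 1.05 (SE 0.24, 2.07-fold lower, adjusted p = 0.0359), a call that was lost when any of BSA replicate 2, Rspo2 replicate 2, Wnt3a replicates 2 and 3 or combination replicates 2 and 3 was left out (adjusted p from 0.0559 to 0.141). The brighter *Klf13* probe read 1.65, 1.60 and 1.25 with BSA and 1.4, 1.13 and 0.83 with both, where the groups overlapped and the change of -0.38 ± 0.16 did not pass the test (adjusted p = 0.0906). The change of the dimmer probe with both was -2.03 when slide was included (adjusted p = 0.127) and -1.10 with normexp (adjusted p = 0.0979). On the third slide alone the combination differed from the Wnt3a array by -1.23 at that probe and by -0.46 at the brighter one. For *Klf9*, a factor induced by glucocorticoids and thyroid hormone, the dimmer probe read -0.36, -0.59 and -0.67 with Wnt3a and -1.02, -1.09 and -1.14 with both, without overlap. It fell by 0.55 on the log2 scale between them (SE 0.13, adjusted p = 0.0346), and differed from BSA with both by -0.31 ± 0.13 (adjusted p = 0.0705). The fall against Wnt3a passed in 13 of 29 alternatives, and was -0.42 with slide included and -0.41 with normexp (adjusted p = 0.434 and 0.588). It was lost without BSA or Rspo2 replicate 2, Wnt3a replicate 1 or 2, or any combination array (adjusted p from 0.0529 to 0.126). The brighter *Klf9* probe spread from -0.63 to 0.80 among the Wnt3a arrays, and its change with both was -0.43 ± 0.35 (adjusted p = 0.353).

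*Klf15* was close to background, and its brighter probe was well above it with BSA only. That probe (A_52_P64383) read -4.11, -4.25 and -4.31 with BSA, -5.11, -4.95 and -5.77 with Rspo2, -5.09, -5.52 and -5.84 with Wnt3a, and -7.06, -6.31 and -6.12 with both. All BSA arrays were above the other 9, on none of which the signal was well above background. For the folds, treated values were raised to the lowest signal of any probe well above background on their array. This level is no strict detection limit. Rspo2 replicate 2 (-4.95 against -5.06) and Wnt3a replicate 1 (-5.09 against -5.48) were above it and kept their own values. Computed so, the probe was 1.78-fold lower with Rspo2 (adjusted p = 0.0310), 2.01-fold lower with Wnt3a (adjusted p = 0.00680) and 2.53-fold lower with both (adjusted p = 0.000152). The adjusted p belongs to the values as read. The probe was tested through the BSA arrays alone, the group where it is high, and the treated values in these tests were not well above background, so the calls add nothing to the difference in detection. No fold is given between the treated groups, as the probe was well above background on none of their 9 arrays. In intensity units the 3 BSA arrays were at 55.05, 60.1 and 54.4, and the combination arrays at 7.08, 12.06 and 15.17. The call with Rspo2 was lost when any of BSA replicates 1, 2 and 3 or Rspo2 replicate 3 was left out (adjusted p from 0.0694 to 0.116), and with normexp the change had the other sign (0.27, adjusted p = 0.861). The changes with Wnt3a and both were -0.67 and -1.02 with normexp and did not pass either (adjusted p = 0.696 and 0.404). When slide was included the changes with Rspo2, Wnt3a and both were -0.89, -0.83 and -1.48, and none passed (adjusted p = 0.310, 0.510 and 0.312). The dimmer *Klf15* probe had intensities of 24.77, 29.44 and 17.12 with BSA and of 5.635, 94.43 and 4.496 with Wnt3a, where replicate 2 stood far above the others at this probe and not at the brighter one. The 5 genes with a signal most like that of the brighter *Klf15* probe were *Tep1*, *Sgsh*, *Casp9*, *Crocc* and *Dop1b* (Pearson's r from 0.984 to 0.990 over the 12 arrays, 9 of which were near background for *Klf15*).

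**Figure D2:**
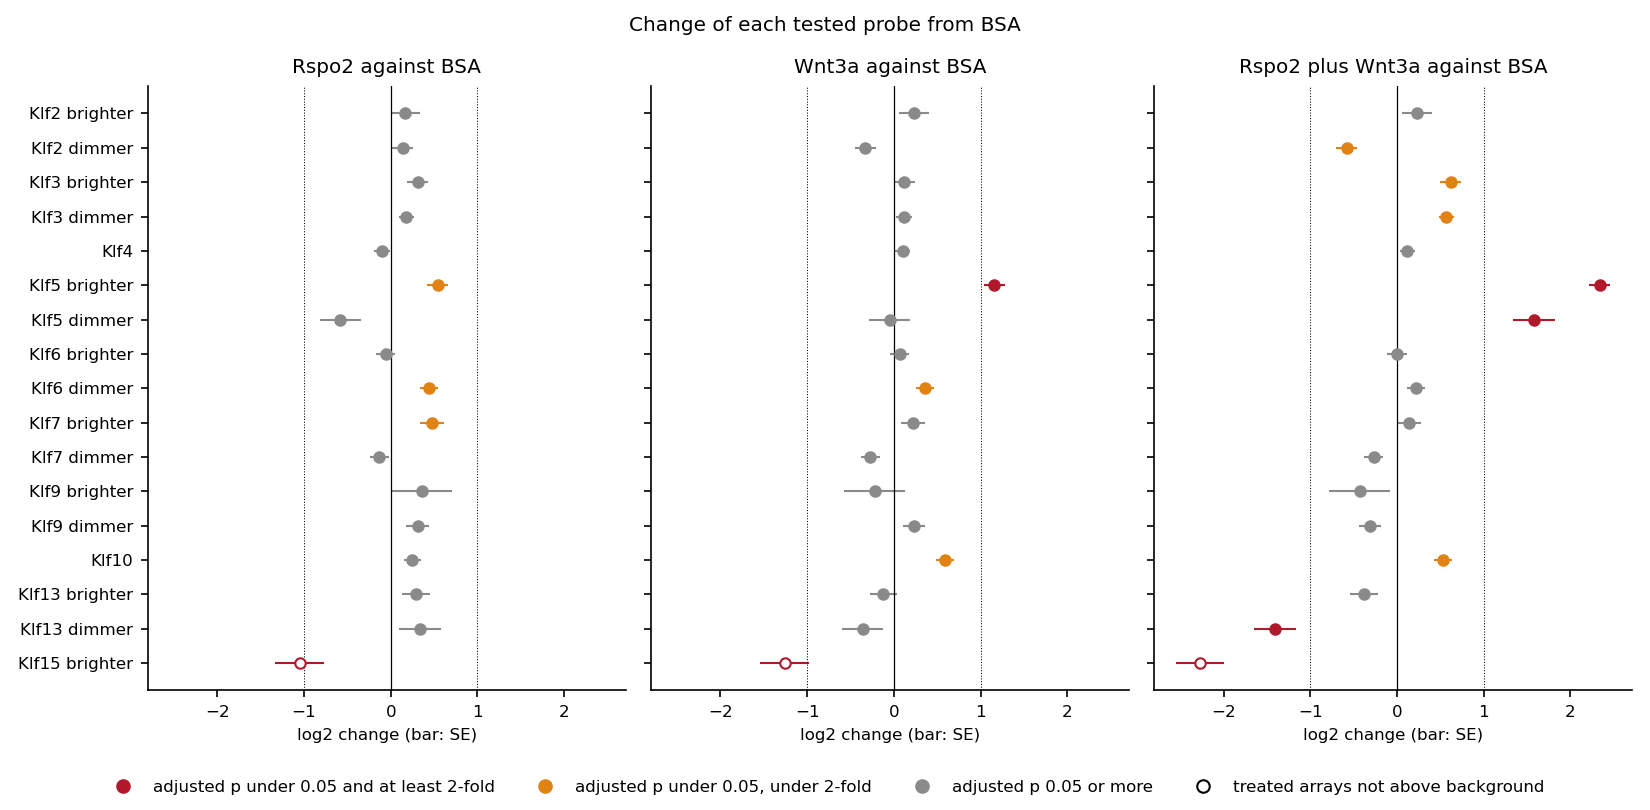
Log2 change from BSA (x axis) of the 17 tested probes (y axis) with Rspo2, Wnt3a and both, with SE bars. Red points were called, orange points passed the adjusted p under 2-fold, and open points had no treated array well above background, so that their size is not a measured fold. The red points number 1, 2 and 4 from left to right, and the dotted lines mark 2-fold.

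Sequence before the start sites was read for the members that moved with both proteins and for which the RefSeq promoter table (GRCm38.p6) held an entry. It held 8 of the 10 genes, and *Klf5* and *Klf10* were not among them. *Klf3*, whose probes rose, and *Klf2*, *Klf13* and *Klf15*, of which a probe was lower, are shown to set the boxes that these factors bind themselves beside those of TCF/LEF. The 250 bases before the start are given 5′ to 3′ on the strand of the gene, and capitals mark every CACCC box (CACCC, on the other strand GGGTG) and GC box (GGGCGG, on the other strand CCGCCC), whose letters may overlap.
Klf2 promoter, chr8:72318812-72319061, plus strand: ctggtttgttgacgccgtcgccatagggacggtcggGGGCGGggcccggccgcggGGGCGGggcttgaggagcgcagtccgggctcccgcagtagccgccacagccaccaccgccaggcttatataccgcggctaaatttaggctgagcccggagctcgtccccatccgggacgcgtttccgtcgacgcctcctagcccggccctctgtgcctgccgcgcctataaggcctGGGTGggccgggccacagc
Klf3 promoter, chr5:64803271-64803520, plus strand: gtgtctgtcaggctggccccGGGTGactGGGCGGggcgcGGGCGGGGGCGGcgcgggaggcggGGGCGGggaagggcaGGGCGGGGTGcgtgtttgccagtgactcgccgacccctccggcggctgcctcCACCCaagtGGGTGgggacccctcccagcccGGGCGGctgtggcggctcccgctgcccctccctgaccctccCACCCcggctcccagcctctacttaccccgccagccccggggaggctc
Klf13 promoter, chr7:63938916-63939165, minus strand: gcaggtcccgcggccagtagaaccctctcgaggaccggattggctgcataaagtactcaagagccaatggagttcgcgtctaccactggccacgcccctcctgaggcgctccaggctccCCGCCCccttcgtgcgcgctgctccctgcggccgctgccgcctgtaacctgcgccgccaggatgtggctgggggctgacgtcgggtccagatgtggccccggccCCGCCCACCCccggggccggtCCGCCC
Klf15 promoter, chr6:90462326-90462575, plus strand: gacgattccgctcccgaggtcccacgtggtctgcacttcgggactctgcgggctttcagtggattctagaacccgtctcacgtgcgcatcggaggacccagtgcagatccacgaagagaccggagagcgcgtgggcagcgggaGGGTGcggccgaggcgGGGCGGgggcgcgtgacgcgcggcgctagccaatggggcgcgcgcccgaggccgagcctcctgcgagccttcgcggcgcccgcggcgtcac
The window of *Klf2* held 1 CACCC and 2 GC boxes, that of *Klf3* 5 CACCC and 6 GC boxes, that of *Klf13* 1 and 3, and that of *Klf15* 1 and 1. CACCC was found in 6 of the 8 members and in 52% of 32851 promoter windows of this length, and the GC box in 7 of 8 and in 32.7% of them. For TCF/LEF the letters searched on both strands were CTTTGAA, found in 4.46% of all windows, CTTTGAT, found in 3.21%, and CTTTGTT, found in 5.03%. Any of them was in 12% of all windows and in 0 of the 8 members. *Klf3* and *Klf13* each had both kinds of box and none of the TCF/LEF letters in these bases. With both proteins the *Klf3* probes rose by under 2-fold, and 1 of the 2 *Klf13* probes was called lower. Neither change passed in a fit that included slide or with normexp. Between 71.2% and 78.4% of the bases of the 4 windows were G or C.

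The interaction asks whether the change with both proteins differed from the sum of the changes with each. Of the 17 probes 2 were called, 1 above the sum and 1 below it, beside 1.93% of all tested probes (1.27% above, 0.651% below), and 5 passed the adjusted p, beside 8.9%. At the dimmer *Klf5* probe the single changes added up to -0.63 and the change with both was 1.58, which is 2.21 ± 0.33 more (adjusted p = 0.00505). At the brighter *Klf5* probe the sum was 1.70 and the change with both 2.34, an excess of 0.64 ± 0.18 (adjusted p = 0.0484). At the dimmer *Klf13* probe the sum was -0.02 and the change with both -1.41, a difference of -1.39 ± 0.34 (adjusted p = 0.0357). The dimmer *Klf6* and *Klf9* probes were also below the sum with both, by -0.57 ± 0.14 (adjusted p = 0.0366) and -0.86 ± 0.18 (adjusted p = 0.0204). The probes of the same genes did not all pass: the brighter *Klf6*, *Klf9* and *Klf13* probes gave -0.01, -0.58 and -0.54 (adjusted p = 0.976, 0.457 and 0.149). With normexp, and when slide was included, 0 of the 17 probes were called. The interaction of the brighter *Klf5* probe was then 0.81 and 0.49 (adjusted p = 0.610 and 0.342), and that of the dimmer one 0.24 and 1.64 (adjusted p = 0.943 and 0.121). Without background subtraction the dimmer probe gave 0.76 (adjusted p = 0.0133), and with Rspo2 alone it was well above background on 1 of 3 arrays. The brighter *Klf5* probe passed in 8 of 26 alternatives, and not when any 1 array other than Wnt3a replicate 3 was left out (adjusted p from 0.0503 to 0.110). The dimmer *Klf6* probe passed in 9 of 26, and not without any of the 3 BSA arrays, Rspo2 replicates 2 and 3, Wnt3a replicates 1 and 2 or combination replicates 2 and 3 (adjusted p from 0.0611 to 0.0896). The dimmer *Klf9* probe passed in 20 of 26, and not without combination replicate 2 or 3 (adjusted p = 0.0528 and 0.0546). The call at *Klf13* was lost when any 1 of 9 of the 12 arrays was left out, namely each BSA array and replicates 2 and 3 of Rspo2, of Wnt3a and of the combination (adjusted p from 0.0531 to 0.0869).

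**Figure D3:**
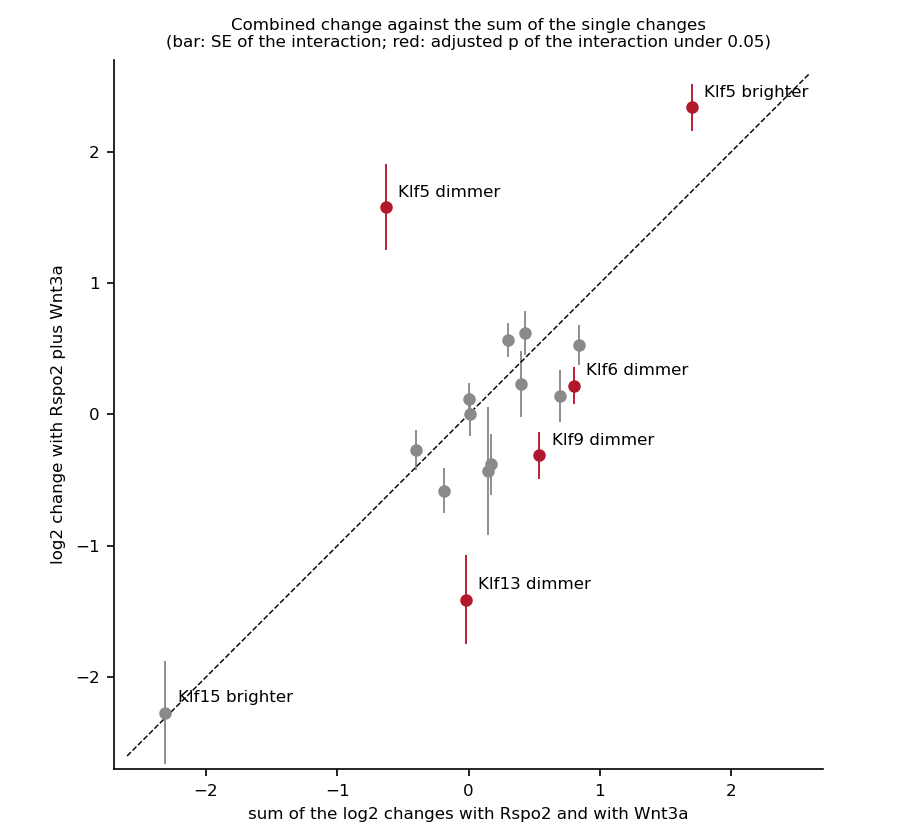
Log2 change with Rspo2 plus Wnt3a (y axis) against the sum of the log2 changes with each protein alone (x axis), 1 point per tested probe, with the SE of the interaction as bars. The dashed line is equality. Red points passed the adjusted p: both *Klf5* probes lie above the line, by 0.64 and 2.21, and the dimmer *Klf6*, *Klf9* and *Klf13* probes below it. The *Klf15* point rests on treated arrays not well above background and is no measured sum.

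Against Wnt3a alone, the addition of Rspo2 gave 3 called probes, both of *Klf5* and the dimmer *Klf13* probe, beside 0.747% of all tested probes (0.413% higher, 0.334% lower), and 6 that passed the adjusted p, beside 4.27%. The groups did not overlap in 7 of the 17 probes, where they did not in 21.4% of all tested probes. In 7 genes both probes were tested. Their changes had the same sign in 4 of these 7 genes with Rspo2, in 3 with Wnt3a and in 4 with both, where *Klf6* had no sign at 1 probe. The widest gap between the probes of a gene was 1.12 with Rspo2 and 1.21 with Wnt3a, both at *Klf5*, and 1.03 with both proteins, at *Klf13*. The scanner files place the brighter *Klf5* probe and both *Klf13* probes over genomic spans of 9733, 46229 and 32932 bases, as for probes that cross introns, and the dimmer *Klf5* probe over 60 bases. The probes of *Klf5*, *Klf7* and *Klf13* were designed to different transcript records of their gene, those of the other genes to the same record.

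**Figure D4:**
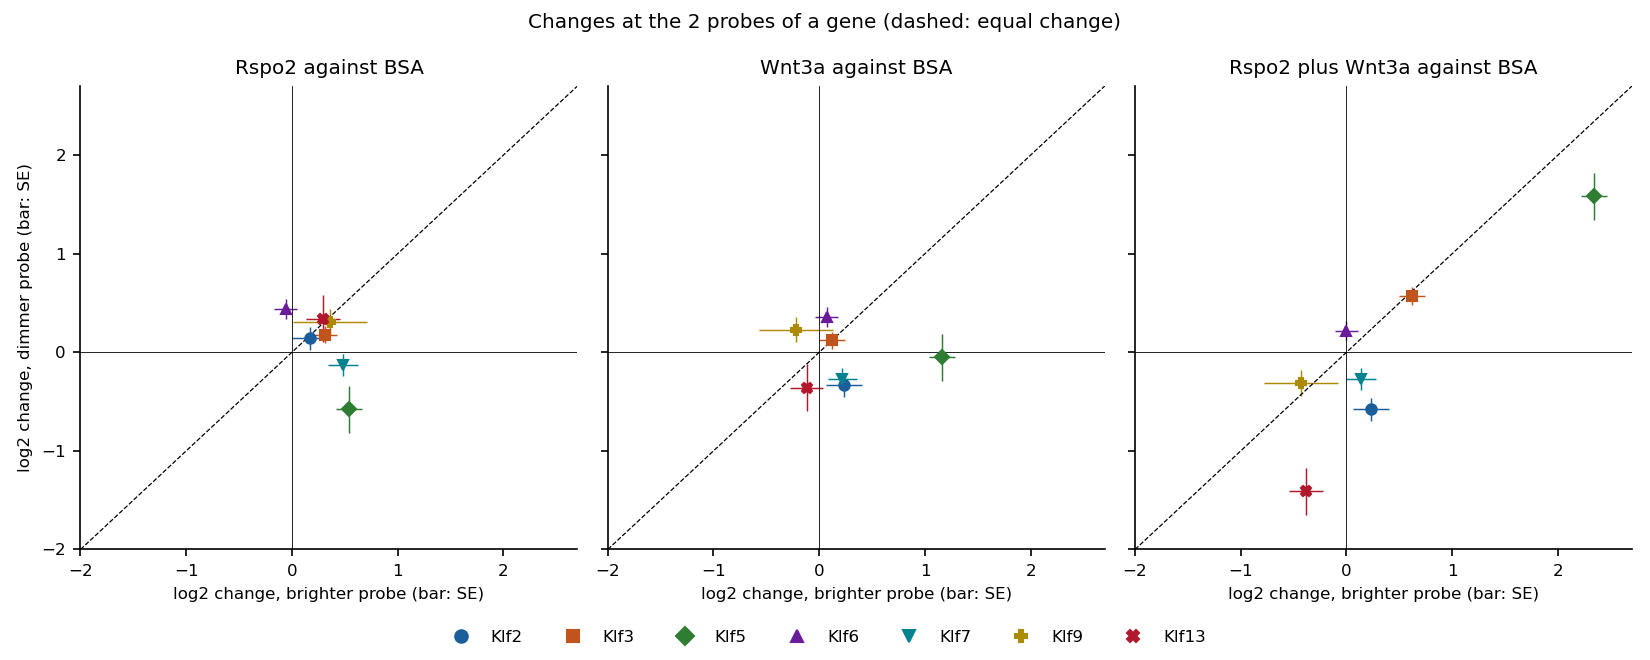
Log2 change from BSA at the brighter probe (x axis) and the dimmer probe (y axis) of the 7 genes with 2 tested probes, with SE bars, for Rspo2, Wnt3a and both. Equal changes lie on the dashed line. *Klf3* stays near the line in all 3 panels, with gaps from 0.00 to 0.13, while *Klf5* lies 1.21 below it with Wnt3a and 0.76 below it with both.

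The genes around these factors were counted at their brightest probe. Of 15 other members of the Krüppel-like and Sp family 8 could be tested, and 1, *Sp8*, was called with both proteins, beside 5.08% of all tested probes. *Sp8* was well above background on 0 BSA arrays and on all 3 with both. With its BSA values set no lower than the lowest signals well above background, it was 3.07-fold higher with both (adjusted p = 0.00252 for the values as read). It was tested only through the groups where it is high, and its BSA values were not well above background. *Klf1*, *Klf8*, *Klf12*, *Klf14* and *Klf17* were well above background on at most 1 array each. Of 12 co-regulators and turnover factors, among them *Ctbp1*, *Ctbp2*, *Sin3a*, *Ep300*, *Wwp1* and *Fbxw7*, 0 were called, and *Ctbp2* and *Sin3b* rose by 0.25 and 0.30 with both (adjusted p = 0.0202 and 0.0168). Of 6 genes of the MEK5-ERK5-MEF2 route, which drives *Klf2* and *Klf4* in endothelium, 0 were called with any treatment. In that list *Mef2c* rose by 0.44 and *Mapk7*, which encodes ERK5, fell by 0.33 on the log2 scale with both (adjusted p = 0.00410 and 0.0111). The median changes with both in these 3 lists were 0.18, 0.06 and -0.07, beside 0.04 over all tested probes.

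Of 7 measured genes of the glucocorticoid receptor and its targets, a list that bears on *Klf9* and *Klf15*, 1 was called with both proteins, beside 5.08% of all tested probes: *Hsd11b1*, which encodes the enzyme that regenerates active glucocorticoid, fell by 1.87 on the log2 scale (SE 0.12, adjusted p = 1.52e-06). With Rspo2 alone it rose by 0.73 (adjusted p = 0.00886). In that comparison 3 of the 7 genes passed upward and 0 downward, beside 16.8% of all tested probes in either direction. *Tsc22d3* and *Dusp1*, the others that passed, rose by 0.3 and 0.28 (adjusted p = 0.0491 and 0.0331). *Hsd11b1* fell by 0.36 on the log2 scale with Wnt3a alone (adjusted p = 0.0379). Changes with slide included or with normexp were not examined for the genes of this list. With both, *Sgk1* and *Per1* also fell, by 0.58 and 0.50 on the log2 scale (adjusted p = 0.000457 and 0.0454), while *Tsc22d3* and *Fkbp5* rose by 0.37 and 0.27 (adjusted p = 0.00921 and 0.0186). The receptor gene itself, *Nr3c1*, changed by -0.01 (adjusted p = 0.958). Of 15 tested genes described elsewhere as targets of these factors, 1 was called higher and 1 lower with both. *Ccnd1*, which encodes cyclin D1, rose by 1.70 ± 0.16 (adjusted p = 2.16e-05), and the chemokine gene *Ccl5* fell by 1.4 on the log2 scale (SE 0.13, adjusted p = 2.79e-05). The 9 genes that passed the test with both, 5 upward and 4 downward, stand beside 39.2% of all tested probes, and the 2 called ones beside 5.08%. The median of the list was 0.09, beside 0.04 over all tested probes.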

How the data were processed

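The values were single-colour intensities from Agilent arrays of 60-base probes. The deposited scanner files, made by the authors with Agilent Feature Extraction 9.5.3.1, hold for each spot the intensity after background subtraction and detrending, the mean and background intensities and quality flags; the genome build of their probe positions is not given in the sources used here. The table deposited alongside holds ratio values, each signal divided by the 75th percentile of its array, with 0.01 as the lowest, and served as an alternative.

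Of 520548 spot values, 1327 flagged as uneven or as outliers were left out, spots of a probe were averaged, and log2 values were reduced by the array's 75th percentile. A probe was tested where all 3 arrays of some group were well above background (for repeated spots, on at least 0.5 of them) and had values on at least 2 arrays of each. All 12 arrays entered 1 linear model in limma 3.58.1 (R 4.3.3, with version 1.17.8 of data.table) with empirical Bayes variances (prior 2.74 degrees of freedom) and 6 comparisons, and p-values were adjusted over the 22751 tested probes by the Benjamini-Hochberg method. An exact permutation p of 3 against 3 arrays cannot go below 0.1 and was not used. The number of arrays limits the precision, and signals near background are the least certain. In simulated data for the combination against BSA with 22712 probes, 46% of 2-fold and 98% of 3-fold changes were called. A simulated 2-fold change lies at the limit for a call, so that share is largely set by the limit. The simulated noise was independent between arrays and held no slide differences. All probes whose symbol was one of the 10 were reported. Members, lists and rules were chosen with earlier results of these data known. Gene lists were counted, not tested as sets. Alternatives covered background correction, scaling, filters, tests, slide, replicate block and the leaving out of each array. No source says that replicate numbers pair the samples. Of 18 same-numbered pairs 4 deviated together (r over 0.1), with r from -0.41 to 0.27. Centring within groups of 3 and the slides also shape these values, so they cannot settle whether the samples pair. Figures used matplotlib 3.10.9 and numpy 2.4.6 in python 3.11.15.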

Additional observations from a re-analysis of the deposited data

Results flagged for a closer look

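The effect of Rspo2 differed between cells without and with Wnt3a, by the test of the interaction, at 5 of the 17 tested probes. Of all tested probes 8.9% passed this test. On the log2 scale the interaction was 0.64 (adjusted p = 0.0484) at the brighter and 2.21 (adjusted p = 0.00505) at the dimmer *Klf5* probe. It was -0.57 (adjusted p = 0.0366) at the dimmer *Klf6* probe, -0.86 (adjusted p = 0.0204) at the dimmer *Klf9* probe and -1.39 (adjusted p = 0.0357) at the dimmer *Klf13* probe. The brighter probes of *Klf6*, *Klf9* and *Klf13* did not pass (adjusted p = 0.976, 0.457 and 0.149). All but the dimmer *Klf5* probe lost the adjusted p when some single arrays were left out. With slide as a term the 5 interactions were 0.49, 1.64, -0.30, -0.60 and -1.34, and none passed the adjusted p. With normexp they were 0.81, 0.24, -0.44, -0.62 and -1.17, and none passed either (adjusted p = 0.610, 0.943, 0.914, 0.540 and 0.803). Outlying arrays were looked for only through fits that left out each array in turn and a fit with array weights.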

How the results depend on the processing

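Each of the 6 counts of called probes was recomputed under 30 alternatives (27 for the interaction, where no t-test and no fit of 2 groups alone could be made). The counts were 1, 2, 4, 0, 3 and 2 for Rspo2, Wnt3a and both against BSA, Wnt3a against Rspo2, both against Wnt3a, and the interaction. They stand beside 164, 573, 1155, 46, 170 and 438 of all 22751 tested probes. Normexp gave 0, 1, 1, 0, 1 and 0 of the probes of these genes, and so did the mean signal without background subtraction. Over all tested probes normexp gave 3, 35, 330, 0, 15 and 3, and the mean signal 16, 69, 362, 4, 46 and 115. Adjusted p alone gave 4, 4, 8, 1, 6 and 5, beside 3817, 7161, 8916, 335, 971 and 2024 of all tested probes. The methods' t-test with adjustment gave 0, 1, 2, 0 and 0, beside 2, 165, 692, 0 and 11. Slide as a term gave 0, 0, 2, 0, 2 and 0, beside 65, 146, 500, 49, 162 and 151 of all tested probes. Groups and slides are partly confounded, and BSA shared no slide with Wnt3a or the combination. Requiring all 12 arrays above background gave 0, 1 and 2 against BSA and 1 for the interaction, beside 49, 285, 788 and 247 of 20436 probes. Quantile and median scaling gave 0 with Rspo2 and 1 with Wnt3a, and array weights gave 0 with Rspo2. Over all tested probes the scalings gave 120 and 136 with Rspo2 and 411 and 568 with Wnt3a, and array weights 180. No filter and the positive-and-significant flag gave 0 with Rspo2 and 1 for the interaction. Beside these stand 65 and 189 of 41174 probes with no filter, and 227 and 423 of 28057 with the flag. The replicate block gave 0 with Rspo2 and 1 for the interaction, beside 120 and 324 of all tested probes. In the block the brighter *Klf15* probe with Rspo2 (adjusted p = 0.0623) and the dimmer *Klf13* probe in the interaction (0.0719) and against Wnt3a (0.0753) were lost; it moved no other call. Leaving out 1 array gave 0 to 1 with Rspo2, 2 with Wnt3a, 4 with both, 0 between Wnt3a and Rspo2, 2 to 3 for both against Wnt3a and 1 to 2 for the interaction. The brighter *Klf15* probe with Rspo2 reversed to 0.27 with normexp. The cause of these differences was not tested. Over all probes 1155 were called with both against BSA, 330 with normexp, 362 with the mean signal and 500 with slide as a term. The median change of all tested probes moved by over 0.1 with median scaling, to 0.18, 0.33 and 0.26 with Rspo2, Wnt3a and both to 0.16 and -0.11 for Wnt3a against Rspo2 and both against Wnt3a, and to -0.28 for the interaction. It also moved by over 0.1 with normexp, to 0.15 with Rspo2 and -0.16 for the interaction, and with no filter, to -0.16 and -0.20 with Wnt3a and both and -0.12 for Wnt3a against Rspo2. Scaling on probes detected on all arrays moved it to -0.12 with Wnt3a and -0.07 with both. The brighter *Klf5* probe with both against BSA was called under all 30 alternatives, from 2.07 to 2.55. Of the 12 called changes, that was the only one with no alternative below the threshold. Signal over background limits the dim *Klf5*, *Klf13* and *Klf15* probes.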
